A study of Homo sapiens with 17 samples.

Results

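The genes that license, open and copy replication origins, 46 in all, were followed through RNA-seq of Ishikawa cells, a human endometrial adenocarcinoma line used as a model of the endometrial epithelium. They were chosen by name for their roles in origin licensing, helicase activity, DNA synthesis, clamp loading, nucleotide supply and chromatin assembly. Earlier results of these data were known when they were chosen. All 46 of 46 were found among the 60662 genes of the count table. The labelled groups were control (cells in culture medium without treatment, n = 3), vehicle (a component labelled Nap together with ethanol, 70% in the labels, n = 3), Nap only (n = 2) and P4 (Nap with progesterone, n = 3), each after 24 h in medium with charcoal-stripped serum. Neither the labels nor the paper define Nap, their progesterone concentrations differ and none is printed here, the paper also gives a lower ethanol percentage in a legend, and ethanol is named for the vehicle group but not for P4. In P4 against vehicle, progesterone and any absence of ethanol cannot be told apart. Another 6 libraries were labelled PSAT1 or PSAT1_P4. Their titles and column headings contradict each other on which of these it was, and they entered no comparison.

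Replication starts from origins that are marked by the origin recognition complex, where CDC6 and CDT1 load the ring-shaped MCM2-7 helicase in G1. In S phase CDC45 and GINS join the ring, polymerases alpha, delta and epsilon copy the strands, the clamp PCNA holds the polymerases on DNA, and ribonucleotide reductase supplies deoxynucleotides. Transcription of many of these genes is raised by E2F factors as cells pass from G1 to S, and in the endometrial epithelium progesterone is known for opposing oestrogen-driven proliferation.

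Library totals were between 4999521 and 19704493 counts, with vehicle replicate 1 the smallest, and MT-RNR2, a mitochondrial ribosomal RNA, took 20.2% to 27.1% of each. Levels are given as CPM (counts scaled to library size, after TMM factors that correct for composition), and 3 counts stood at 0.152 to 0.600 CPM. All 46 members passed the filter on low counts, and the lowest level of a member in a labelled library was 4.72 CPM, for POLA2. Markers of epithelium and of endometrial glands were present, among them EPCAM at 172 to 215 CPM and PAX8 at 206 to 362 CPM. In P4 against vehicle they moved too: of 5 epithelial markers KRT8, KRT18 and KRT19 were lower, at log2 fold changes of -0.70, -0.34 and -0.35, CDH1 was higher at 0.24 and EPCAM had 0.07 (adjusted p = 0.383 in the edgeR fit). Of 4 gland markers PGR, PAX8 and ESR1 were lower, at -1.44, -0.68 and -0.33, and SOX17 had 0.16 (adjusted p = 0.159). PAX8 had mean levels of 224 CPM in control, 230 CPM in Nap only, 349 CPM in vehicle and 220 CPM in P4 libraries, so it was its vehicle level that was high. Against control 2 of the 4 gland markers were called lower, against 28% of all genes. The part of these markers in the results below was not tested. PGR, the progesterone receptor, had mean levels of 111 CPM in control, 57.4 CPM in vehicle and 21.7 CPM in P4 libraries. Of 8 markers of fibroblasts, leukocytes and endothelium, 6 stayed at or under 1.49 CPM in every labelled library, and the summed level of the 8 was 92.2 to 157 CPM in control, 88.9 to 146 CPM in Nap only, 69.7 to 91.7 CPM in vehicle and 66.0 to 76.4 CPM in P4 libraries, nearly all of it COL1A1 and COL3A1. The part of these collagen transcripts was not tested either.

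Because E2F binding is the textbook link between these genes, the letters of their promoters were read from RefSeq (GRCh38.p14, 250 bases before to 50 after the start), where 40 of the 46 members matched. An E2F motif was searched on both strands as TTTCCCGC, TTTCGCGC, TTTGCCGC or TTTGGCGC, and overlapping matches were allowed. It stood in 18 of the 40 windows (45%), against 3.31% of all 35116 windows and 4.81% of the 15616 windows of genes tested in P4 against vehicle. Each member had 1 window, while the other windows were not reduced to 1 per gene. CCAAT, the letters of the NF-Y site, stood on either strand of 57.5% of the members' windows and 34.6% of all windows. Among members lower under P4 than in vehicle 15 of 30 windows held the E2F letters, among members that were higher 1 of 4 did, and among those not called 2 of 6 did. Below, 4 windows are printed to set a pair with E2F letters and a lower level under P4 (MCM6 and PCNA) beside one with the letters and a higher level (ORC3) and one without them whose level fell by more than that of most members (FEN1). Capitals mark the matches, which in MCM6 are overlapping pairs on opposite strands in 2 stretches.
MCM6 (chr2:135876394-135876693, strand minus): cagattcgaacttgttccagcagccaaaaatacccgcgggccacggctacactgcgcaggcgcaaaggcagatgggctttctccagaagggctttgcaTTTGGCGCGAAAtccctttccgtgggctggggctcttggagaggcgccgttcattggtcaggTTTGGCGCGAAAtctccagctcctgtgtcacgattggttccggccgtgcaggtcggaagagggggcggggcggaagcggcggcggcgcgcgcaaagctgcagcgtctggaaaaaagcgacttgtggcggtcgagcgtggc
PCNA (chr20:5126573-5126872, strand minus): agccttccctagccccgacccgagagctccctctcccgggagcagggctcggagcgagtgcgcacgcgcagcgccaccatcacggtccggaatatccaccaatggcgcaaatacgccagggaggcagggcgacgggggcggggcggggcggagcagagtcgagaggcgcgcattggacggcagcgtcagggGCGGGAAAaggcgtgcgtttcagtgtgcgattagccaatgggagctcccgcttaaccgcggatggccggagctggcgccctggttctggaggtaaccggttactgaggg
ORC3 (chr6:87589885-87590184, strand plus): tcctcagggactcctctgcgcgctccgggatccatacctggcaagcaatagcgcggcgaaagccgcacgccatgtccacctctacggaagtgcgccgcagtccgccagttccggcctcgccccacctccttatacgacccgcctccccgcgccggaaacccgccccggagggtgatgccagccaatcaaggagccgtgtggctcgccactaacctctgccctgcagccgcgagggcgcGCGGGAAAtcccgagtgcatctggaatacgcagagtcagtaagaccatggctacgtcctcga
FEN1 (chr11:61792661-61792960, strand plus): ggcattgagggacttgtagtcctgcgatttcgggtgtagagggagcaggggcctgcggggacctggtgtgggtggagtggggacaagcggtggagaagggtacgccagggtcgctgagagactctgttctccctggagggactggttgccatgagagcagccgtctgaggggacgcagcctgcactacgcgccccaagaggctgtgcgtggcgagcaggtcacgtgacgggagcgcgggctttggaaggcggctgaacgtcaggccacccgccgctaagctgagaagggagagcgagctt
A match is a run of letters and not a measured binding site.

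In P4 against vehicle, the comparison the study sequenced these cultures for, most replication genes were lower with progesterone. Of the 46 members 33 were lower (71.7%), against 26.5% of all 16539 genes tested, and 4 were higher (8.70%), against 26.6% of all genes, by the quasi-likelihood test of edgeR, with p-values adjusted over all genes by the Benjamini-Hochberg procedure. The median log2 fold change of the members was -0.50 and that of all genes -0.01. Beyond 1 log2 unit 6 members were lower (13.0%), against 7.03% of all genes, and 0 were higher, against 5.34% of all genes. The summed level of the 46 members was 3511 to 3614 CPM in vehicle and 2464 to 2550 CPM in P4 libraries, so the groups did not overlap. In RNA of whole cultures, fewer cells in S phase and less RNA per cell cannot be told apart.

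**Figure D1:**
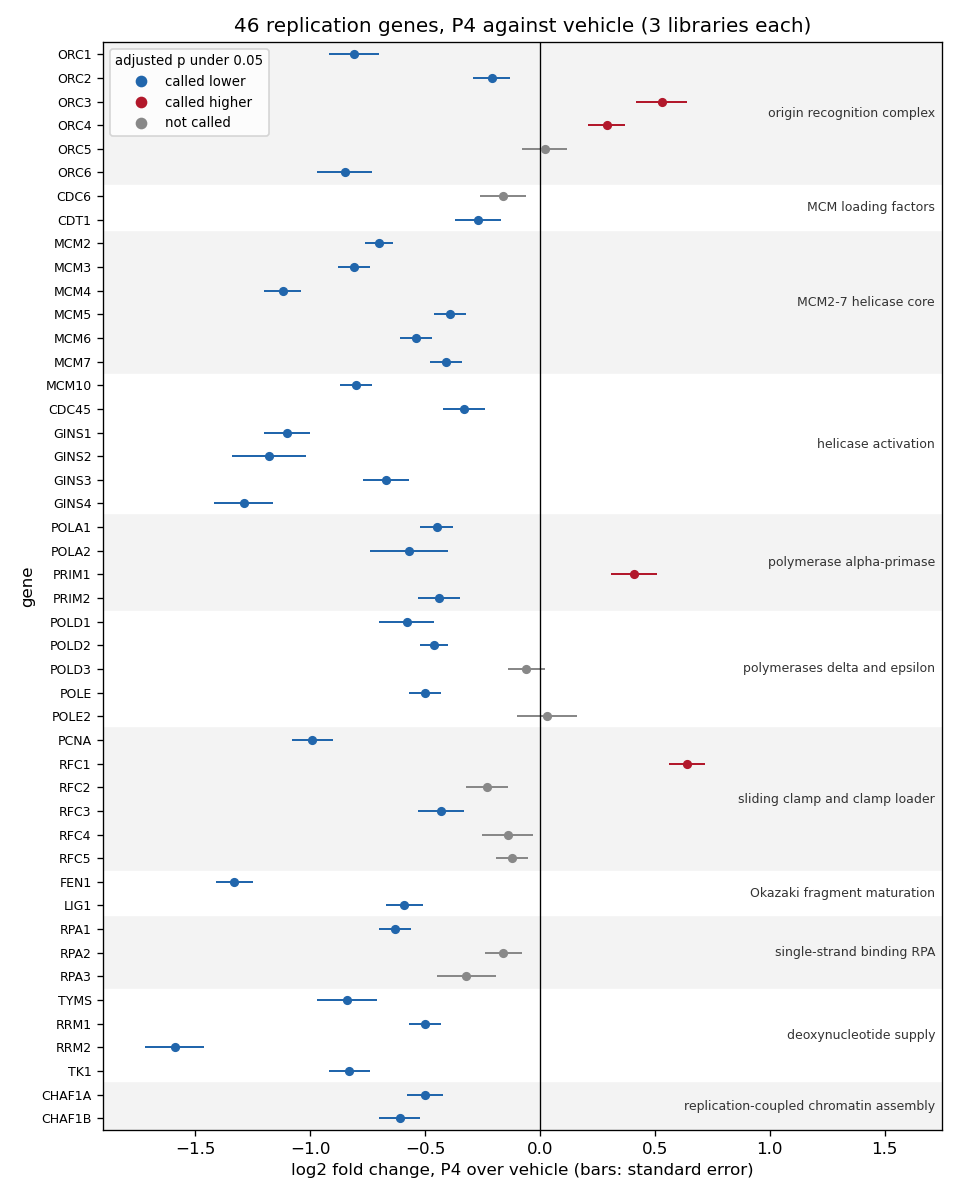
Log2 fold change of each of the 46 members in P4 over vehicle (horizontal axis, points, with standard error as bars), grouped by role on the vertical axis, with 3 libraries in each group. Blue points mark the 33 members called lower and red points the 4 called higher (ORC3, ORC4, PRIM1 and RFC1), and the lowest point is RRM2 at -1.59.

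The 6 subunits of the origin recognition complex did not move together. ORC1, whose presence on origins is regulated through the cell cycle, stood at 41.2, 37.5 and 40.7 CPM in control, 39.5 and 37.7 CPM in Nap only, 36.2, 34.2 and 37.8 CPM in vehicle and 16.9, 21.6 and 23.3 CPM in P4 libraries. Every P4 value lay under every value of the other groups, and the log2 fold change against vehicle was -0.81 (SE 0.11, adjusted p = 7.6e-05). ORC6, the smallest subunit, fell by 0.85 on the log2 scale (SE 0.12) and ORC2 by 0.21 (SE 0.08, adjusted p = 0.0345). ORC3, one of the core subunits, stood at 31.9, 29.7 and 34.2 CPM in control, 33.2 and 28.6 CPM in Nap only, 31.8, 25.6 and 24.7 CPM in vehicle and 36.0, 41.8 and 39.6 CPM in P4 libraries, and was higher under P4 than in vehicle by 0.53 (SE 0.11, adjusted p = 0.00102). ORC4, another core subunit, stood at 48.0, 42.8 and 50.6 CPM in control, 43.5 and 44.3 CPM in Nap only, 48.0, 44.3 and 44.1 CPM in vehicle and 53.8, 58.0 and 55.7 CPM in P4 libraries. All 3 P4 values of ORC3 and of ORC4 lay above all values of the other groups, and the log2 difference of ORC4 from vehicle was 0.29 (SE 0.08, adjusted p = 0.00632). ORC5 differed by 0.02 (SE 0.10), which did not pass the test.

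Of the loading factors CDC6 and CDT1, only CDT1 passed the test. It stood at 24.7, 20.6 and 18.8 CPM in control, 18.7 and 18.7 CPM in Nap only, 27.4, 23.6 and 23.4 CPM in vehicle and 19.6, 21.9 and 20.1 CPM in P4 libraries. Its vehicle values lay above the middle control value and its P4 values within their range, and the log2 fold change against vehicle was -0.27 (SE 0.10, adjusted p = 0.0398). That call and the call of ORC2 were each lost in 8 of 13 alternative settings, among them without any 1 of the vehicle replicates and without P4 replicate 1 or 3. CDC6 had a log2 fold change of -0.16 (SE 0.10, adjusted p = 0.214) and was called lower without P4 replicate 2 and with upper-quartile scaling.

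All 6 subunits of the MCM2-7 helicase were lower under P4. MCM4 had the smallest adjusted p of them and stood at 291, 301 and 308 CPM in control, 284 and 305 CPM in Nap only, 256, 272 and 271 CPM in vehicle and 135, 110 and 126 CPM in P4 libraries. No P4 library of MCM4 was above 135 CPM and no other labelled library under 256 CPM, and the log2 fold change against vehicle was -1.12 (SE 0.08, adjusted p = 3.2e-07). MCM3 fell by 0.81 on the log2 scale (SE 0.07) and MCM2 by 0.70 (SE 0.06). MCM6, MCM7 and MCM5 fell by 0.54, 0.41 and 0.39 (SE 0.07 each). The subunits assemble in equal numbers, and the sizes of their transcript differences ranged from -1.12 to -0.39 on the log2 scale.

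The 6 helicase activation genes were also all lower. MCM10, needed to start unwinding, stood at 75.7, 65.2 and 73.8 CPM in control, 75.0 and 69.3 CPM in Nap only, 62.4, 64.3 and 62.6 CPM in vehicle and 37.7, 35.8 and 36.4 CPM in P4 libraries. Its P4 values varied by less than 2 CPM and lay apart from all others, with a log2 fold change of -0.80 (SE 0.07, adjusted p = 2.9e-06). The 4 GINS genes encode 1 tetramer that binds the MCM ring, and GINS4, GINS2, GINS1 and GINS3 had log2 fold changes of -1.29 (SE 0.13), -1.18 (SE 0.16), -1.10 (SE 0.10) and -0.67 (SE 0.10). CDC45, their partner in the active helicase, fell by 0.33 (SE 0.09, adjusted p = 0.00869), a call that DESeq2 did not make.

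Polymerase alpha-primase, which lays down the primers, split by subunit. POLA1, the catalytic polymerase subunit, stood at 80.5, 79.6 and 85.1 CPM in control, 81.1 and 86.8 CPM in Nap only, 79.0, 75.6 and 74.1 CPM in vehicle and 56.7, 58.1 and 54.0 CPM in P4 libraries. The P4 values were the lowest of the 4 groups, and the log2 fold change against vehicle was -0.45 (SE 0.07, adjusted p = 2.0e-04). POLA2 and the large primase subunit PRIM2 fell by 0.57 (SE 0.17) and 0.44 (SE 0.09), and the call of POLA2 was lost without vehicle replicate 3 and with DESeq2. PRIM1, the catalytic primase subunit, stood at 31.4, 32.0 and 32.7 CPM in control, 31.5 and 32.1 CPM in Nap only, 27.0, 20.7 and 22.6 CPM in vehicle and 29.8, 30.0 and 32.6 CPM in P4 libraries. Its P4 values lay among or next to those of control and Nap only, and it was the vehicle values that were low: the log2 fold change of P4 over vehicle was 0.41 (SE 0.10, adjusted p = 0.00554), and without vehicle replicate 2 this call was lost.

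Of the 5 subunit genes of polymerases delta and epsilon, which copy the lagging and leading strands, 3 fell. POLD2, an accessory subunit of polymerase delta, stood at 129, 125 and 118 CPM in control, 123 and 117 CPM in Nap only, 106, 110 and 107 CPM in vehicle and 77.9, 80.4 and 78.7 CPM in P4 libraries. The 3 P4 values lay within 3 CPM of each other and under all others, with a log2 fold change of -0.46 (SE 0.06, adjusted p = 7.1e-05). The catalytic subunit genes POLD1 and POLE fell by 0.58 (SE 0.12) and 0.50 (SE 0.07). POLD3 and POLE2, both accessory subunits, had log2 fold changes of -0.06 (SE 0.08) and 0.03 (SE 0.13) that did not pass the test.

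The clamp and the large subunit of its loader moved in opposite directions. PCNA stood at 175, 192 and 182 CPM in control, 187 and 184 CPM in Nap only, 149, 153 and 137 CPM in vehicle and 82.4, 66.4 and 73.7 CPM in P4 libraries. The levels formed 3 steps that did not overlap, with control and Nap only above vehicle and vehicle above P4, and the log2 fold change of P4 over vehicle was -0.99 (SE 0.09, adjusted p = 1.7e-06). RFC1, which holds the small subunits RFC2 to RFC5 in the clamp loader, stood at 145, 149 and 159 CPM in control, 147 and 155 CPM in Nap only, 113, 128 and 123 CPM in vehicle and 167, 207 and 200 CPM in P4 libraries. Every P4 value of RFC1 lay above every other value and every vehicle value under them, with a log2 difference of P4 from vehicle of 0.64 (SE 0.08, adjusted p = 5.0e-05). RFC3 fell by 0.43 (SE 0.10), while RFC2, RFC4 and RFC5 had log2 fold changes of -0.23 (SE 0.09), -0.14 (SE 0.11) and -0.12 (SE 0.07) that did not pass the test. RFC2 was called lower in 4 of 13 alternative settings (upper-quartile scaling, at least 10 counts in every library, the replicate block and without P4 replicate 1), RFC4 in 1 (without P4 replicate 1) and RFC5 in 1 (upper-quartile scaling).

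FEN1, the nuclease that trims the flaps of Okazaki fragments, had the smallest adjusted p of the 46 members. It stood at 95.0, 99.0 and 94.6 CPM in control, 95.5 and 91.3 CPM in Nap only, 82.1, 82.0 and 83.2 CPM in vehicle and 32.7, 31.1 and 35.3 CPM in P4 libraries. The P4 level was 0.397 times that of vehicle, a log2 fold change of -1.33 (SE 0.08, adjusted p = 5.6e-08), and no library of P4 came near another group. LIG1, the ligase that seals the fragments, fell by 0.59 (SE 0.08).

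RPA1, the large subunit of the single-strand binding protein, stood at 89.4, 89.5 and 79.0 CPM in control, 78.8 and 75.6 CPM in Nap only, 92.6, 102 and 103 CPM in vehicle and 65.2, 66.1 and 63.7 CPM in P4 libraries. The P4 values were the lowest and the vehicle values the highest, with a log2 fold change between them of -0.63 (SE 0.07, adjusted p = 1.4e-05). Its partners RPA2 and RPA3 had log2 fold changes of -0.16 (SE 0.08, adjusted p = 0.123) and -0.32 (SE 0.13, adjusted p = 0.0568), and RPA3 was called lower in 4 of 13 alternative settings (upper-quartile scaling, all 4 groups in the fit, the replicate block and without P4 replicate 1) and RPA2 in 1 (upper-quartile scaling).

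All 4 genes of deoxynucleotide supply fell. RRM2, the small subunit of ribonucleotide reductase whose protein is limited to S phase, had the lowest log2 fold change of all members. It stood at 172, 149 and 165 CPM in control, 162 and 150 CPM in Nap only, 161, 169 and 168 CPM in vehicle and 67.9, 43.3 and 55.7 CPM in P4 libraries. The P4 libraries of RRM2 spread more than those of FEN1 but lay far under the rest, with a log2 fold change against vehicle of -1.59 (SE 0.13, adjusted p = 1.5e-06). RRM1, the large subunit, fell by 0.50 (SE 0.07) and thymidine kinase TK1 by 0.83 (SE 0.09). TYMS, thymidylate synthase, fell by 0.84 (SE 0.13, adjusted p = 1.8e-04) from a vehicle level that was itself raised. Its exons overlap those of TYMSOS and ENOSF1 on the opposite strand over 46.6% of their length, and since the strand setting of the counting is not stated, reads from these genes cannot be told apart.

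Both subunit genes of chromatin assembly factor 1, which deposits histones behind the fork, fell. CHAF1B stood at 47.8, 50.0 and 48.7 CPM in control, 48.7 and 50.0 CPM in Nap only, 52.0, 49.3 and 44.8 CPM in vehicle and 32.8, 29.9 and 33.4 CPM in P4 libraries. The P4 values lay apart from the other 3 groups, which overlapped each other, and the log2 fold change was -0.61 (SE 0.09, adjusted p = 1.0e-04). CHAF1A fell by 0.50 (SE 0.08).

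**Figure D2:**
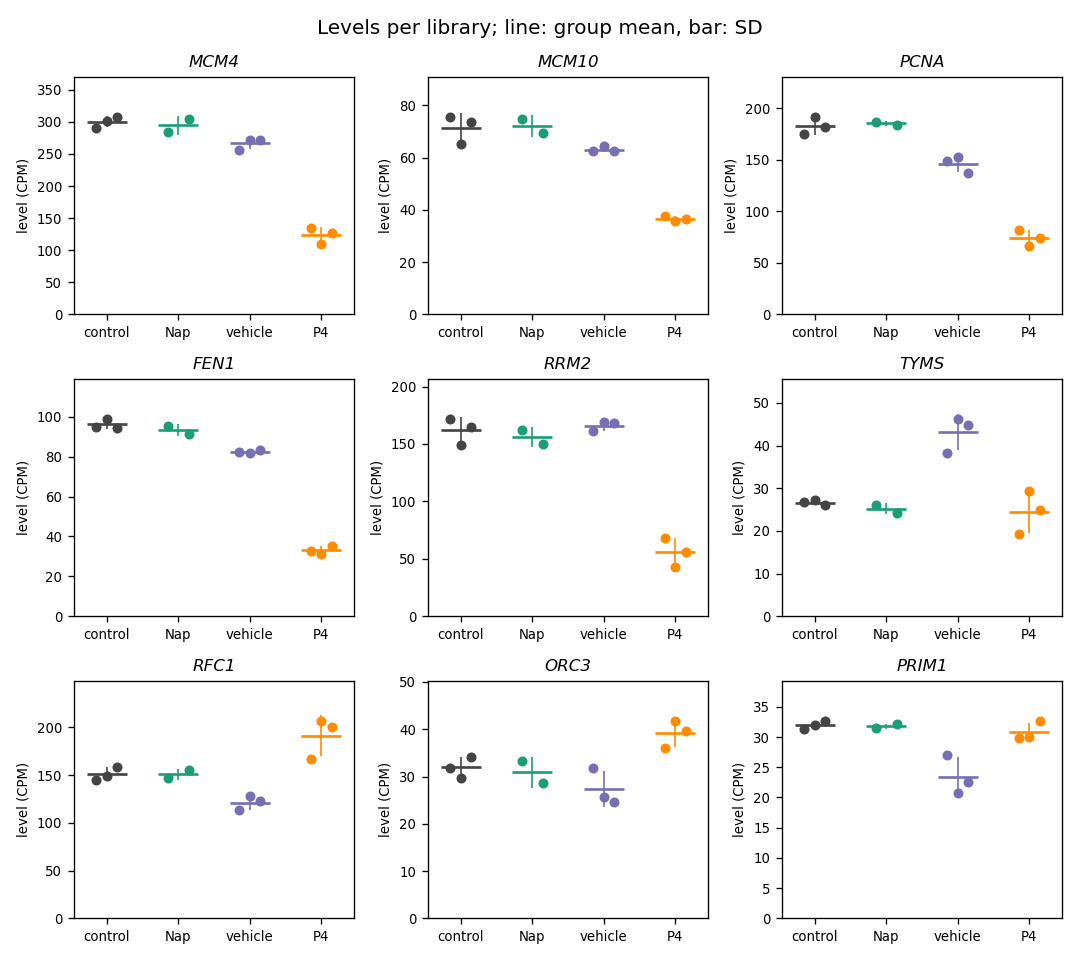
Level in CPM (vertical axes, from 0) of 9 members in each of the 11 labelled libraries, with a line at each group mean and a bar for the SD. MCM4, MCM10, PCNA, FEN1 and RRM2 are lowest in the 3 P4 libraries, RFC1 and ORC3 are highest there, and TYMS and PRIM1 stand apart in the vehicle libraries.

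The same P4 libraries were also compared with control and with Nap only, so these comparisons are not independent of the one above. Against control 34 of 46 members were lower and 2 higher, against 28% and 26.8% of 16619 genes, with a median log2 fold change of -0.57. Against Nap only, the group whose label differs from P4 by progesterone alone, 33 were lower and 3 higher, against 24.9% and 24.8% of 16986 genes, with a median of -0.60. If the P4 cultures held ethanol that the labels do not name, progesterone and ethanol cannot be told apart in either comparison. FEN1 had log2 fold changes of -1.56 (SE 0.10) against control and -1.53 (SE 0.09) against Nap only, and PCNA of -1.33 (SE 0.10) and -1.35 (SE 0.10). RRM2 had -1.56 (SE 0.13) and -1.51 (SE 0.14), and MCM4 -1.30 (SE 0.10) and -1.28 (SE 0.10). The members called higher were ORC3 and RFC1 against control, at 0.27 (SE 0.10) and 0.32 (SE 0.10), and ORC3, ORC4 and RFC1 against Nap only, at 0.32 (SE 0.11), 0.32 (SE 0.09) and 0.31 (SE 0.10). These higher calls were not stable: the count against control fell to 0 without control replicate 1 or P4 replicate 3 and to 1 without control replicate 2 or P4 replicate 2, and the count against Nap only fell to 0 without P4 replicate 3 or either Nap only replicate.

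Vehicle against control sets cultures with Nap and ethanol beside untreated ones, without progesterone in either. In that comparison 12 of 46 members were lower (26.1%), against 10.7% of 16672 genes, and 2 were higher (4.35%), against 11.9% of all genes, with a median log2 fold change of the members of -0.14. PCNA fell by 0.32 on the log2 scale (SE 0.07, adjusted p = 0.003), RPA3 by 0.51 (SE 0.10), PRIM1 by 0.48 (SE 0.10), RPA2 by 0.40 (SE 0.08) and RFC1 by 0.31 (SE 0.07). The others called lower were GINS3, GINS4, POLD2, POLE2, RFC3, FEN1 and RRM1, at -0.34 to -0.20. The 2 called higher were TYMS at 0.71 (SE 0.09, adjusted p = 9.3e-06) and POLE at 0.30 (SE 0.07, adjusted p = 0.00567). TYMS, whose libraries are given here because its values were seen to turn on the vehicle, stood at 26.7, 27.2 and 26.0 CPM in control, 26.2 and 24.3 CPM in Nap only, 38.3, 46.3 and 44.9 CPM in vehicle and 19.3, 29.4 and 24.9 CPM in P4 libraries. The vehicle values of TYMS lay above all others, and those of P4 spread around those of control. Without vehicle replicate 2 the members called lower numbered 5 and those called higher 1, and without vehicle replicate 3 those called lower numbered 5.

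No gene was called between Nap only and control. None of the 46 members was called, as none of 17165 genes was (0% higher and 0% lower) by edgeR's quasi-likelihood test, while 215 genes had an unadjusted p under 0.05 and DESeq2 called 1 gene. The members' log2 fold changes lay between -0.19 and 0.14 with a median of 0.00, and Nap only had 2 libraries.

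For some members the call depended on the reference group. TYMS was at -0.84 against vehicle but at -0.14 (SE 0.13, adjusted p = 0.374) against control. POLE was at -0.50 against vehicle and -0.21 (SE 0.09, adjusted p = 0.0651) against control, and PRIM1 at 0.41 and -0.08 (SE 0.10, adjusted p = 0.537). RPA2, RPA3, POLE2, RFC2 and RFC4 were called lower against control, at -0.57 (SE 0.10), -0.84 (SE 0.13), -0.32 (SE 0.13), -0.46 (SE 0.10) and -0.30 (SE 0.12), and not against vehicle. The calls of POLE2 and RFC4 were lost with DESeq2 and without P4 replicate 2 or 3 or control replicate 3. The call of POLE2 was also lost without control replicate 1, and that of RFC4 without control replicate 2. CDT1, POLA2 and ORC4 were called against vehicle and had -0.08 (SE 0.12), -0.31 (SE 0.18) and 0.22 (SE 0.10) against control. All 3 subunits of RPA, all 6 of MCM2-7 and all 6 helicase activation genes were lower under P4 than in control. RFC1, lower in vehicle than in control, was higher in P4 than in either. Of the values set side by side here, P4 against vehicle and P4 against control share the P4 libraries. P4 against vehicle and vehicle against control share the vehicle libraries, which enter them with opposite sign.

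**Figure D3:**
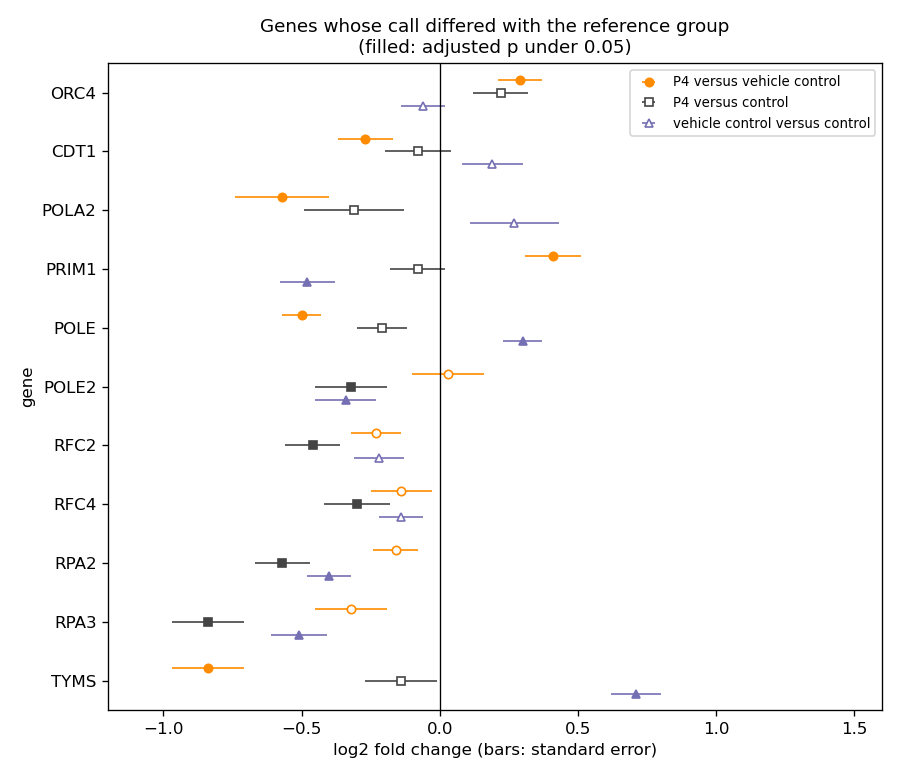
Log2 fold change with standard error (horizontal axis) of the 11 members whose call differed between P4 against vehicle (circles) and P4 against control (squares), with vehicle against control (triangles) beside them. Filled symbols passed an adjusted p under 0.05, and TYMS, POLE and PRIM1 show filled circles and triangles on opposite sides of 0 with an open square between them. Circles and triangles share the vehicle libraries, with opposite sign.

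By role, the summed levels of the P4 libraries ran from a range that overlapped control to less than 0.5 times the control mean. As a percent of the mean of the 3 control libraries, the P4 libraries stood at 42.7% to 45.8% for Okazaki fragment maturation, 42.1% to 51.0% for helicase activation, 48.7% to 56.6% for deoxynucleotide supply and 53.8% to 57.7% for MCM2-7. The origin recognition complex stood at 81.4% to 87.0% and the loading factors at 74.4% to 98.8%, which overlapped the vehicle libraries at 96.9% to 99.7%. The clamp and clamp loader sum was at 78.1% to 80.6% in P4 and 83.1% to 86.3% in vehicle libraries, a small step that joined the fall of PCNA with the higher RFC1. Over all 46 members the P4 libraries were at 63.9% to 66.1%, the vehicle libraries at 91.0% to 93.7% and the Nap only libraries at 98.9% to 99.6%. These sums weigh abundant transcripts most and carry no test.

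**Figure D4:**
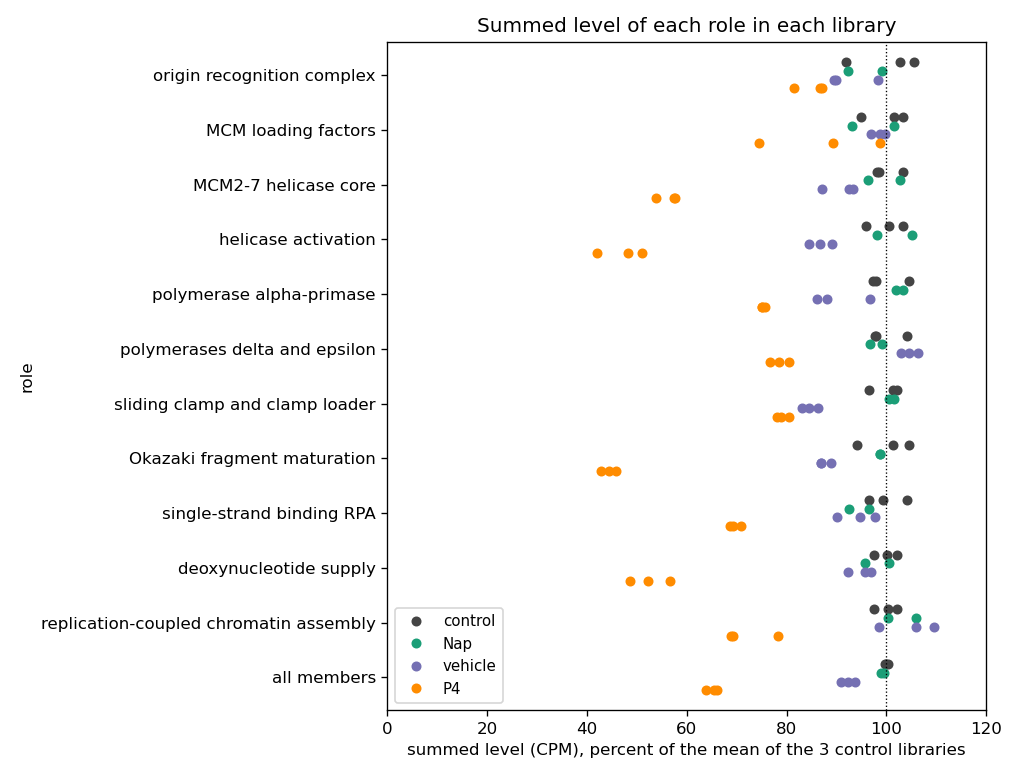
Summed CPM of each role in each labelled library as a percent of the mean of the 3 control libraries (horizontal axis, from 0; dotted line at 100), with roles on the vertical axis and the group given by colour. The P4 points lie left of the vehicle points in each role except the loading factors, where they overlap, and farthest left for Okazaki fragment maturation and helicase activation.

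Per length, the members differed widely in level. In RPKM (CPM per kilobase of exonic length) the control means ran from 1.13 for POLA2 to 124 for PCNA, followed by MCM3 at 61.9 and RRM1 at 61.3. Among the subunits of the MCM2-7 ring the control means were 61.9 for MCM3, 51.2 for MCM7, 43.0 for MCM4, 36.8 for MCM2, 24.8 for MCM6 and 13.2 for MCM5. In P4 libraries MCM7 was at 34.4, MCM3 at 32.7, MCM2 at 20.6, MCM6 at 17.9, MCM4 at 17.7 and MCM5 at 9.25 RPKM, so the order changed and MCM4 stood beside MCM6. Ribonucleotide reductase was at 61.3 RPKM for RRM1 and 30.4 for RRM2 in control and at 36.6 and 10.5 in P4 libraries. The length counts all annotated exons of a gene, which lowers the RPKM of genes with long rare exons.

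Around the members, the genes that drive and brake S-phase entry were also read in P4 against vehicle, from lists that do not hold the members, and the shares of all genes called (26.6% higher, 26.5% lower) apply to them too. Of 13 E2F and pocket protein genes 5 were lower and 4 higher, with a median log2 fold change of -0.10. TFDP1, the dimer partner of the E2F factors, fell by 0.62 (SE 0.08, adjusted p = 5.0e-05) and E2F2 by 0.88 (SE 0.14). E2F5 and E2F4, which act mainly as repressors, were higher by 0.42 (SE 0.09) and 0.33 (SE 0.09). Their mean levels in control, vehicle and P4 libraries were 22.9, 20.6 and 27.8 CPM for E2F5 and 49.5, 44.0 and 56.1 CPM for E2F4. For both genes the vehicle level was the lowest of these. Against control 1 of the 13 genes was called higher and 4 lower, against 26.8% and 28% of all genes. The highest log2 fold change of the list against control was 0.52, and RB1 had mean levels of 20.3 CPM in control and 29.6 CPM in P4 libraries. Of 7 S-phase cyclin and kinase genes 6 were lower and 0 higher, with a median of -0.46. CCNA2, the S-phase cyclin A, fell by 0.83 (SE 0.09, adjusted p = 1.2e-05) and CDC25A, a phosphatase that activates CDK2, by 0.62 (SE 0.09).

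Of 4 replication inhibitor genes 2 were higher and 1 lower, with a median of 0.36. CDKN1A, which encodes the kinase inhibitor p21 that also binds PCNA, stood at 48.5, 79.4 and 51.2 CPM in control, 55.3 and 68.3 CPM in Nap only, 80.8, 87.0 and 81.3 CPM in vehicle and 202, 243 and 237 CPM in P4 libraries. The P4 values lay far above the rest, and the log2 fold change against vehicle was 1.44 (SE 0.08, adjusted p = 4.6e-08). CDKN1B, which encodes the kinase inhibitor p27, was higher by 1.04 (SE 0.10), and GMNN, geminin, which blocks CDT1, fell by 0.31 (SE 0.10, adjusted p = 0.0189). CDKN1C, the remaining gene of the list, had a log2 fold change of -0.50 that did not pass the test. Its mean levels were 7.58 CPM in control, 6.78 CPM in Nap only, 4.54 CPM in vehicle and 3.36 CPM in P4 libraries. Against control 2 of the 4 genes were called higher and 2 lower, against 26.8% and 28% of all genes.

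Of 18 other fork factor genes 13 were lower and 1 higher, with a median of -0.35. TICRR, which brings CDC45 to origins, fell by 1.41 (SE 0.08, adjusted p = 3.8e-08) and RECQL4, a helicase of origin firing, by 1.15 (SE 0.09), while MCMBP, a partner of MCM subunits, was higher by 0.31 (SE 0.08). Of 11 other nucleotide and chromatin assembly genes 7 were lower and 1 higher, with a median of -0.31, led by UHRF1 at -1.78 (SE 0.12), which guides maintenance DNA methylation, and the histone chaperone ASF1B at -1.29 (SE 0.09). SLBP, which binds histone mRNA, was higher by 0.21 (SE 0.07, adjusted p = 0.0199). Mean levels of MCMBP were 122 CPM in control, 98.7 CPM in vehicle and 124 CPM in P4 libraries. Those of SLBP were 73.2, 62.3 and 72.7 CPM, so for both genes it was the vehicle level that was low. Against control 0 genes of either list were called higher, against 26.8% of all genes. Of 9 fork checkpoint genes 2 were lower (CLSPN at -1.22, SE 0.08, and ATRIP at -0.71, SE 0.11) and 2 higher (RAD17 at 0.44, SE 0.08, and ATR at 0.29, SE 0.07), with a median of 0.02. The checkpoint genes had 2 called higher and 3 lower against control, where the shares of all genes were 26.8% and 28%. Against Nap only 0 were called higher and 3 lower, against 24.8% and 24.9% of all genes. All 9 proliferation markers were lower, with a median of -0.58, among them MKI67 at -1.34 (SE 0.10) and TOP2A at -0.59 (SE 0.06). MKI67 was higher in vehicle than in control by 0.36 (SE 0.09, adjusted p = 0.0048) and fell by 0.98 (SE 0.10) in P4 against control.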

How the data were processed

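RNA of Ishikawa cell cultures was sequenced as single-end reads of 75 bp from stranded total RNA libraries, and the cultures of a group are labelled as biological replicates. The authors used Cutadapt for trimming, a quality filter, Subread for alignment of uniquely mapped reads and featureCounts with GENCODE 31, and deposited the raw counts per gene. Versions and the strand setting of the counting are not given in the sources used here. Columns were assigned through the sample descriptions, and 0 were left unused. Gene names, exon overlaps and lengths came from GENCODE 29.

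Comparisons were fitted with edgeR 4.0.16 (R 4.3.3) over the groups compared, after TMM scaling and a filter on low counts (filterByExpr, minimum 10), by robust quasi-likelihood, with Benjamini-Hochberg adjustment over all genes tested. A gene was called at an adjusted p under 0.05, and the SE of a log2 fold change was taken from its F statistic. CPM used TMM factors over all 17 libraries. The procedure was tested on simulated data. All 46 members could be named. Values per library are given for the member with the smallest adjusted p of each role in P4 against vehicle and for members called against the main direction, and 2 genes per direction are named from each other pathway list. CDKN1A and TYMS were given per library, and RB1 was named, after their values were seen. The members and lists were chosen with earlier results of these data known. The 4 promoters printed were chosen after their motifs were seen, and Python 3.11.15 was used for tables.

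Alternatives were RLE and upper-quartile scaling, no filter, at least 10 counts in every library, DESeq2 1.42.0, all 4 labelled groups in 1 fit, a block for replicate number, leaving out single replicates and, for levels, raw library totals. The 6 libraries whose titles and column headings name different treatments were left without a group. Exons of 22 members overlap those of another gene, over more than 20% of the length in MCM2, GINS4, POLA2, PRIM1, TYMS and RRM2, and 8 members have named pseudogenes, so reads of these genes may be shared.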

Additional observations from a re-analysis of the deposited data

How the results depend on the processing

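In P4 against vehicle the members called lower numbered 29 (DESeq2) to 38 (upper-quartile scaling) and those called higher 3 or 4 over 13 alternatives, and 35 of 46 members kept their side of the threshold in all of them (over the 12 or 13 alternatives of the other comparisons, 36 against control, 33 against Nap only, 30 in vehicle against control, 46 in Nap only against control). No member changed direction while called. Upper-quartile scaling moved the median log2 fold change of all genes in P4 against vehicle from -0.01 to -0.10. The members called higher against control (2) numbered 1 with upper-quartile scaling, with no filter and with DESeq2, and 0 to 3 with a replicate left out. Against Nap only (3) they numbered 1 with upper-quartile scaling and 0 to 3 with a replicate left out, and all genes called (8450) numbered 5504 to 9718. In vehicle against control, leaving out a replicate gave 1 to 3 members higher, 5 to 15 lower and 1908 to 3995 genes. In Nap only against control 3 genes were called with no filter, 1 with DESeq2, 1 with all 4 groups in the fit and 0 to 5 with a replicate left out. Causes were not tested. With raw library totals the summed member level was 3976 CPM in control, 4062 in Nap only, 3640 in vehicle and 2342 in P4 libraries, against 3857, 3828, 3561 and 2514.

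In 4 comparisons the replicate numbers did not pair the samples, with mean correlations of same-numbered libraries of -0.0739 to 0.0419. In Nap only against control both pairs deviated together (0.307 and 0.351), but 2 pairs are too few to call the samples paired. With the replicate number as a block, members called higher and lower were 4 and 35 against vehicle, 1 and 34 against control, 0 and 31 against Nap only, 3 and 11 in vehicle against control, and 0 and 0 in Nap only against control, where 44 genes were called in all. Libraries of 4999521 counts and more, 2 or 3 a group, limit the precision.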

Other observations

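The 6 libraries without a group were read by the heading of their column, which their titles and treatment labels contradict. The summed level of the 46 members was 3849, 3692 and 3796 CPM in the columns headed PSAT1 and 2558, 2525 and 2490 CPM in those headed PSAT1_P4. The values fell into 2 clusters of 3, which followed the headings. FEN1 stood at 97.7, 85.1 and 97 CPM under the first heading and 32.7, 34.6 and 31.3 CPM under the second, RRM2 at 165, 147 and 158 CPM and 61.5, 50 and 49.4 CPM, and MCM4 at 291, 279 and 291 CPM and 137, 125 and 124 CPM. RFC1 stood at 147, 141 and 141 CPM under the first heading and 196, 208 and 209 CPM under the second, and ORC3 at 30.9, 28.3 and 29.4 CPM and 41.5, 42.4 and 43.7 CPM. TYMS stood at 25.2, 22.4 and 23.1 CPM and 19.1, 20.4 and 31.2 CPM. Which treatment each library received cannot be read from the labels, so no mean or test was made.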
